A study of Solanum lycopersicum with 120 samples.

Results

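Ethylene is made from S-adenosylmethionine in a pair of steps, and the genes described here encode the enzymes of both, the ACC synthases (ACS) and the ACC oxidases (ACO). The rule named 10 tomato genes by their identifiers, 4 for ACS and 6 for ACO. The 4 ACS identifiers are *Solyc02g091990* (*ACS3*), *Solyc08g081550*, *Solyc03g043890* and *Solyc08g008100*, and the 6 ACO identifiers are *Solyc07g049550* (*ACO3*), *Solyc07g049530* (*ACO1*), *Solyc02g036350*, *Solyc02g081190*, *Solyc12g005940* and *Solyc07g026650*. *Solyc08g008100* was not analysed here. The other 9 were read in every library, among 34075 genes listed in the count tables.

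The plants were seedlings of the tomato cultivar M82, 12 days old, grown at 24 °C. They either received white light to which far-red light had been added (24FR, with a ratio of red to far-red light of 0.6) or stayed in white light (24WL). Added far-red light lowers this ratio as the shade of neighbouring leaves does. Cotyledons, first leaf, hypocotyl and epicotyl were collected, and each of the 3 biological replicates of a group pooled the organ from 4 seedlings. The groups were *slpifq*, *slpif8a* and WT after 6 h in 24FR or 24WL, and WT also after 3 and 24 h. The *slpif8a* line carries a mutation in *SlPIF8a*, and in *slpifq* 4 genes are mutated together, *SlPIF8a*, *SlPIF7b*, *SlPIF7a* and *SlPIF4*, which encode PIF transcription factors that act in the response to shade. Both are CRISPR lines, and WT has none of these mutations. Far-red light began 2 h after the lights came on, so that samples of 3, 6 and 24 h were taken 5, 8 and 2 h after dawn. Time in far-red light and time of day therefore cannot be told apart within 24FR, and each 24FR group was compared with 24WL of the same hour. A change of that difference from one time to another still holds time in far-red light and time of day together, and these cannot be told apart.

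ACC synthase turns S-adenosylmethionine into 1-aminocyclopropane-1-carboxylic acid (ACC), and this step usually limits how much ethylene a plant makes. ACC oxidase then turns ACC into the gas. Both enzymes are families of genes in tomato, best known from ripening fruit, where some members start the burst of ethylene, while others act in stems, leaves and roots. Ethylene binds receptors that hold the pathway off while they are empty, and EIN3-like factors then switch on the target genes.

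Libraries held 15905765 to 33913236 counts on genes, with a median of 25121820.5 over 120 libraries. Levels are given as CPM, counts scaled to library size, after TMM normalization, as mean ± SD of 3 replicates where not listed one by one. A count of 3 in one library, taken as the floor, was 0.0710 to 0.222 CPM. Differences are log2 values with their standard error from edgeR's quasi-likelihood test, and a gene was called at a Benjamini-Hochberg adjusted p under 0.05 with an absolute log2 difference above 1. The adjustment ran over 17469 genes in the time course and 17460 genes in the genotypes, each with CPM above 5 in at least 3 libraries. Of the 9 genes, 6 passed this filter in each table. *ACS3*, *Solyc03g043890* and *Solyc07g026650* did not, and their values come from a fit of all genes with a count. *SlATHB2* (*Solyc08g078300*), a shade-induced transcription factor gene, was higher in 24FR than in 24WL in all 12 comparisons of WT, with log2 differences of 2.61 to 4.08. Each of the 72 libraries of either table correlated best with a group of its own organ over 2000 variable genes, and the group nearest to a library was its own for 70 of 72 libraries in the time course and 43 of 72 in the genotype table. Markers that define each organ were not identified in the files.

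In WT, *ACS3* was the ACC synthase gene with calls in response to added far-red light in all 4 organs. It was called higher in 24FR in 6 of 12 comparisons, at 6 h in every organ and at 24 h in the hypocotyl and the epicotyl. Among the ACC oxidase genes, *ACO3* was called higher in 3 of 12 comparisons and *Solyc02g036350* in 1. Together with 1 call of *Solyc03g043890*, 11 of 108 pairs of gene and comparison were called, all higher. An unadjusted edgeR p under 0.05 was found in 39 of the 108. No share of all genes was taken at that limit, so this count cannot be set against the shares that follow. Of all genes, 0.704 to 6.94% were called in these 12 comparisons in the filtered fit, in either direction, and 0.484 to 6.29% in the fit without a filter. The comparisons at 6 and 24 h with calls were read against 3.08% in the cotyledons at 6 h, 2.24% in the first leaf at 6 h, 4.47% and 4.23% in the hypocotyl at 6 and 24 h, and 2.51% and 6.94% in the epicotyl at 6 and 24 h. Without a filter, where *ACS3* was read, these shares were 2.42% in the cotyledons, 1.71% in the first leaf, 3.64% and 3.69% in the hypocotyl, and 1.98% and 6.29% in the epicotyl. In the cotyledons at 24 h no gene of the 9 was called, where 2.56% of all genes were. The 3 h cotyledons, with 1 call among the 9 genes, had 1.28% of all genes called. Over the 6 filtered genes, the median log2 difference was above that of all genes in each of these comparisons, by most in the hypocotyl at 24 h (0.74 against -0.01) and in the epicotyl at 24 h (0.70 against -0.02).

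**Figure D1:**
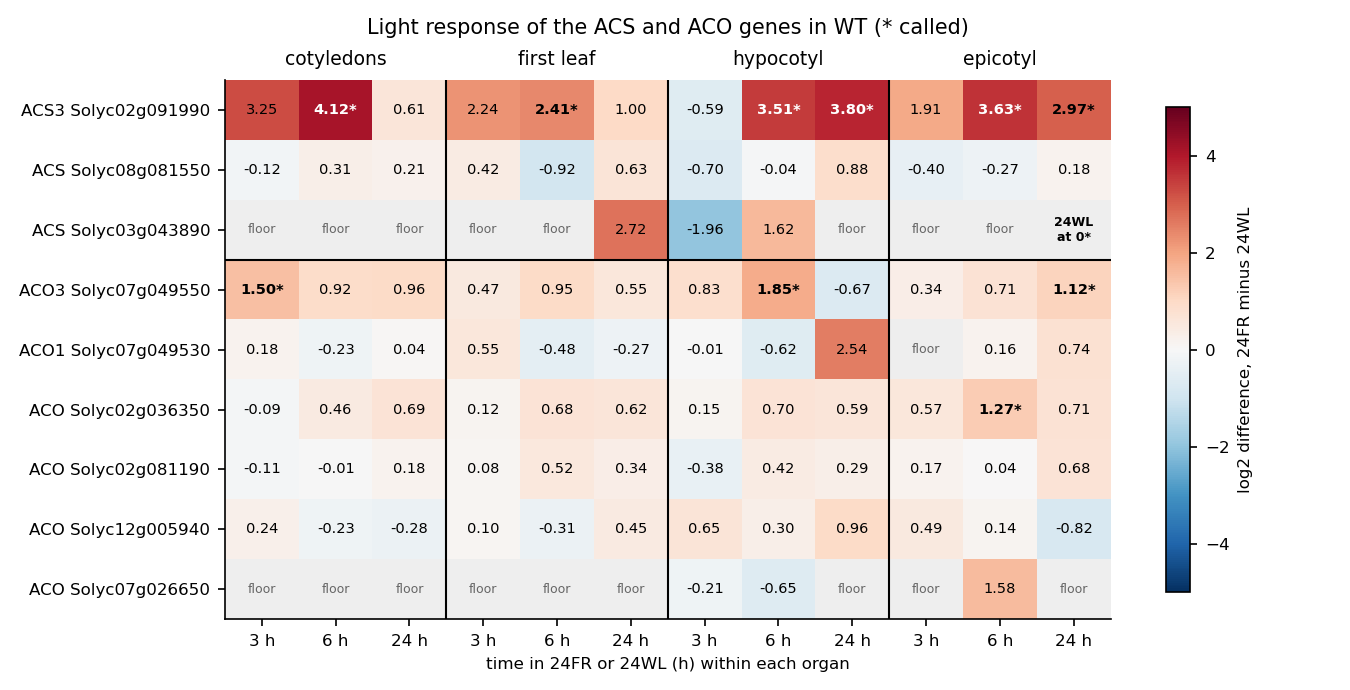
The heat map gives the log2 difference of 24FR minus 24WL in WT for the 9 genes, with the ACS genes above the ACO genes, for each organ at 3, 6 and 24 h. Asterisks mark calls, "floor" marks pairs of groups in which no library had more than 3 counts, and the top row, *ACS3*, holds 6 of the 11 calls.

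*ACS3* transcripts were scarce in white light. In the cotyledons at 6 h, *ACS3* stood at 4.45, 1.29 and 1.18 CPM in 24FR, from 90, 26 and 20 counts, against 0.139, 0.104 and 0.145 CPM in 24WL, from 2, 2 and 3 counts. The log2 difference was 4.12 ± 0.89 (SE, edgeR adjusted p = 0.000707), and every 24FR library was above every 24WL library. The ratio of summed counts, scaled to library size, was 18.4, with an exact 95% interval of 8.69 to 46.6 that covers counting error only. At 3 h in the same organ the 24FR libraries spread widely, with 17, 3 and 1 counts against 1, 1 and 0 counts in 24WL, and the groups overlapped. The log2 difference there, 3.25 ± 1.46, had an adjusted p of 0.293 (edgeR). By 24 h the cotyledons were near the floor in both lights, with 1, 6 and 2 counts in 24FR and 3, 1 and 2 counts in 24WL.

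In the first leaf, *ACS3* was detected in every library of both lights. At 6 h it was 3.01, 3.52 and 2.52 CPM in 24FR and 0.479, 0.721 and 0.501 CPM in 24WL, with no overlap and a log2 difference of 2.41 ± 0.65 (edgeR adjusted p = 0.0119). At 3 h it was 2.49, 1.3 and 1.10 CPM in 24FR and 0.206, 0.576 and 0.262 CPM in 24WL. These groups did not overlap either, yet the log2 difference of 2.24 ± 0.76 did not pass the adjustment (edgeR adjusted p = 0.117). The ratio of summed counts was 4.82 (2.95 to 8.25) at 3 h and 5.48 (3.89 to 7.90) at 6 h. After 24 h the leaf libraries of the 2 lights overlapped, with 1.05, 0.973 and 0.488 CPM in 24FR and 0.530, 0.215 and 0.488 CPM in 24WL.

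In the hypocotyl, no increase was seen at 3 h. *ACS3* stood at 0.254, 0.313 and 0.176 CPM in 24FR and at 0.254, 0.643 and 0.225 CPM in 24WL (log2 difference -0.59 ± 0.85, edgeR adjusted p = 0.837). At 6 h it was 3.16, 1.81 and 0.470 CPM in 24FR, against 0.154, 0.102 and 0.199 CPM in 24WL, a log2 difference of 3.51 ± 0.76 (edgeR adjusted p = 0.000449). The lowest far-red library was still above the highest white-light library. At 24 h, 1 library carried most of the difference: the 24FR libraries had 7, 9 and 69 counts and the 24WL libraries 1, 4 and 1 counts. The log2 difference was 3.80 ± 0.94 (edgeR adjusted p = 0.00216), and without replicate 3 of 24FR it was 2.04 with an adjusted p of 0.211.

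In the epicotyl, the *ACS3* response was called at 6 and 24 h. At 6 h the gene was at 1.00, 1.16 and 0.561 CPM in 24FR and at 0, 0.175 and 0.0258 CPM in 24WL (log2 difference 3.63 ± 0.87, edgeR adjusted p = 0.00205). At 24 h it reached 2.76, 3.52 and 5.46 CPM in 24FR, the highest group mean of the time course (3.91 CPM), against 0.191, 0.0613 and 1.21 CPM in 24WL. That log2 difference was 2.97 ± 0.63 (edgeR adjusted p = 0.000103), and neither time showed an overlap. The ratios of summed counts were 13.2 (6.49 to 31.5) and 7.63 (5.68 to 10.5). Replicate 3 of 24WL held 42 of the 50 white-light counts at 24 h, and without it the log2 difference was 4.91 and still called in edgeR. At 3 h, 11, 12 and 2 counts in 24FR stood against 2, 4 and 0 counts in 24WL, with an adjusted p of 0.703 in edgeR. Bulk libraries cannot tell whether more cells expressed the gene or each cell held more of its RNA.

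**Figure D2:**
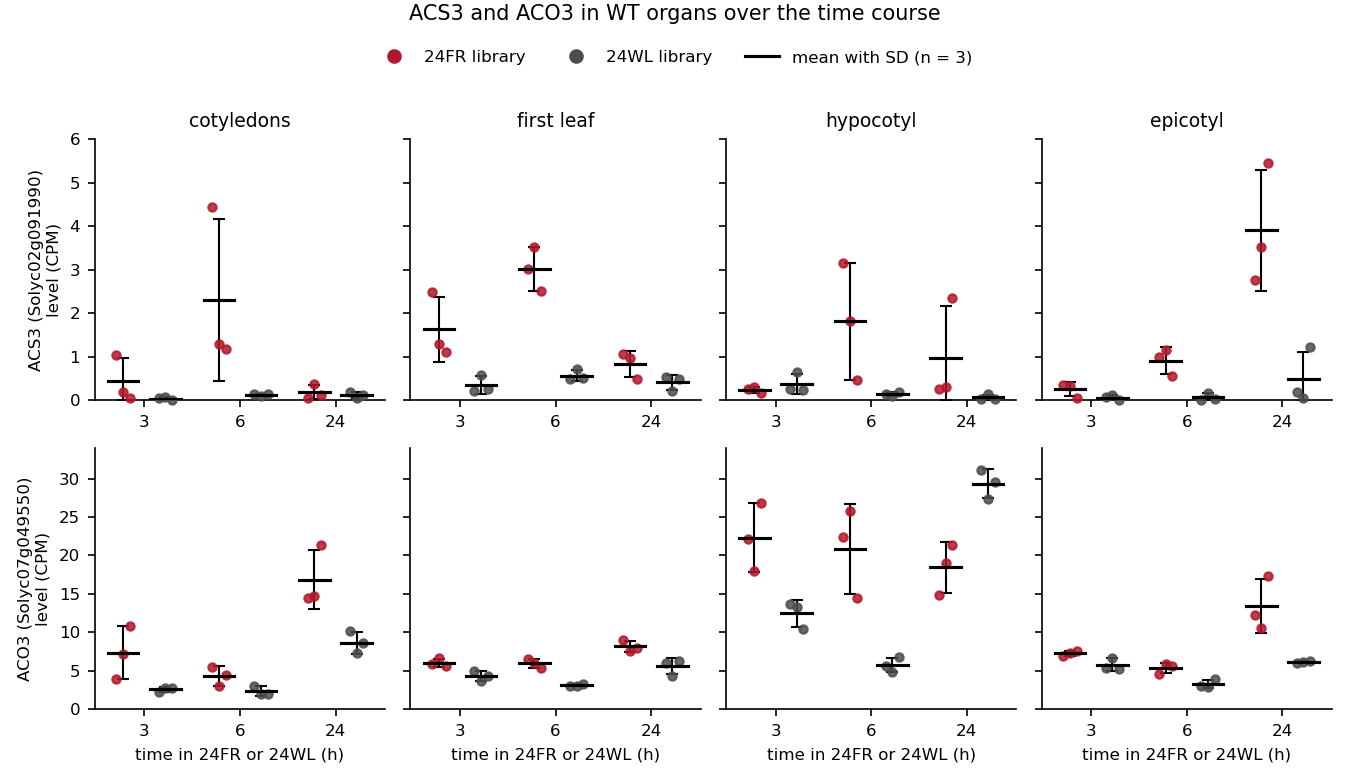
Points are single WT libraries of 24FR (red) and 24WL (grey) after 3, 6 and 24 h, in CPM, with *ACS3* in the upper and *ACO3* in the lower panels of each organ. Lines are means with the SD of 3 libraries, with whiskers ended at 0. In the hypocotyl at 24 h, the *ACO3* libraries of 24FR lie below those of 24WL, while at 3 and 6 h they lie above.

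Whether the *ACS3* response changed with time was tested as a difference of log2 differences. In the hypocotyl it was larger at 6 h than at 3 h by 4.10 ± 1.16 (edgeR adjusted p = 0.0481) and larger at 24 h than at 3 h by 4.39 ± 1.3 (edgeR adjusted p = 0.0306). Of all genes, 1.77% and 5.81% were called in these contrasts in the fit without a filter. Both calls rest on few counts. With 1 of the 12 libraries left out in turn, the call at 6 h was kept in 3 of 12 fits and that at 24 h in 8 of 12, and both were lost in a fit to the hypocotyl alone. Without replicate 3 of the 24 h 24FR hypocotyl, the change from 3 to 24 h was 2.63 (edgeR adjusted p = 0.273). No contrast between organs was called for *ACS3*, and the smallest adjusted p of these 6 contrasts was 0.829.

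The remaining ACS genes gave no such pattern. *Solyc08g081550* was measured in every library, at 1.37 to 36.1 CPM over the time course, and none of its 12 light comparisons was called, with log2 differences of -0.92 to 0.88 and a smallest adjusted p of 0.257 in edgeR. Its replicates differed widely within groups. In the hypocotyl at 6 h it was 12.5, 16.9 and 14.0 CPM in 24FR and 3.26, 10.4 and 30.9 CPM in 24WL, so the white-light libraries lay on both sides of the far-red ones. *Solyc03g043890* was at 0 in 38 of 72 libraries of the time course and had at most 10 counts in any. Its single light call, in the epicotyl at 24 h, came from 4, 1 and 9 counts in 24FR and 0, 0 and 0 in 24WL, at least 4.57-fold higher against 3 counts over the group (edgeR adjusted p = 0.00945). Without replicate 3 of 24FR the adjusted p was 0.0757. In the first leaf at 24 h it had 6, 5 and 4 counts in 24FR and 0, 0 and 2 counts in 24WL, a ratio of 7.35 (1.71 to 66.3) that did not pass in edgeR (adjusted p = 0.249).

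*ACO3* was the ACC oxidase gene with the widest response to far-red light. It passed the adjusted p in 9 of the 12 WT comparisons, 8 of them higher and 1 lower in 24FR, and exceeded a log2 difference of 1 in 3. For light, no share of all genes was taken at the adjusted p alone. Counts at that limit therefore cannot be set against the shares of calls. In the hypocotyl at 6 h *ACO3* was at 22.4, 25.8 and 14.4 CPM in 24FR, against 5.63, 4.87 and 6.76 CPM in 24WL. The log2 difference was 1.85 ± 0.21 (edgeR adjusted p = 8.74e-10), and the groups were far apart. At 3 h in this organ the levels were 22.2, 17.9 and 26.9 CPM in 24FR and 13.7, 13.3 and 10.5 CPM in 24WL (log2 difference 0.83 ± 0.21, edgeR adjusted p = 0.00486). At 24 h the order turned. *ACO3* stood at 14.8, 19.1 and 21.4 CPM in 24FR and at 31.1, 27.3 and 29.5 CPM in 24WL, again without overlap, and fell by 0.67 ± 0.20 on the log2 scale (edgeR adjusted p = 0.00941).

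In the epicotyl the *ACO3* response was largest at 24 h. There it was at 12.2, 10.6 and 17.4 CPM in 24FR and 5.98, 6.13 and 6.30 CPM in 24WL, a log2 difference of 1.12 ± 0.21 (edgeR adjusted p = 1.34e-05). Without replicate 3 of 24FR the difference was 0.89, under the call limit of 1. In the cotyledons the call was at 3 h, with 3.98, 7.16 and 10.9 CPM in 24FR, against 2.23, 2.81 and 2.79 CPM in 24WL (log2 difference 1.5 ± 0.26, edgeR adjusted p = 3.59e-05). The cotyledon differences of 0.92 at 6 h (edgeR adjusted p = 0.0119) and 0.96 at 24 h (edgeR adjusted p = 0.000617) were smaller than 2-fold. In the first leaf, *ACO3* was 6.48, 6.00 and 5.38 CPM in 24FR and 3.02, 3.03 and 3.22 CPM in 24WL at 6 h, a log2 difference of 0.95 ± 0.24 (edgeR adjusted p = 0.00403). At 3 and 24 h the leaf differences were 0.47 and 0.55 and did not pass.

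The change of the *ACO3* response over time went in opposite directions in the stem organs. In the hypocotyl, the response at 24 h minus that at 6 h was -2.52 ± 0.30 on the log2 scale (edgeR adjusted p = 1.66e-08), and minus that at 3 h it was -1.5 ± 0.29 (edgeR adjusted p = 0.000241). Both calls were kept with any of the 12 libraries left out. Of all genes, 10.9% and 11% were called in these contrasts. In the epicotyl the response at 24 h was above that at 3 h by 0.79 ± 0.30 (edgeR adjusted p = 0.0389), where 33.7% of all genes were called, and 5 of 12 fits with a library left out kept this call. The difference between the organs was itself called at 24 h, with the epicotyl response above the hypocotyl response by 1.79 ± 0.29 (edgeR adjusted p = 4.38e-06, 25.4% of all genes). At 6 h the epicotyl response minus the hypocotyl response was -1.14 ± 0.31 (edgeR adjusted p = 0.0466, 1.19% of all genes), a call kept in 3 of 12 fits with a library left out. That call was also lost with the filter at CPM above 1 (adjusted p = 0.0521), with no filter (0.0649), in the fit to the compared groups alone (0.132) and in limma at a pseudocount of 0.1 (0.0795). The response of the hypocotyl at 6 h also exceeded that at 3 h, by 1.02 ± 0.29 (edgeR adjusted p = 0.0392, 3.13% of all genes), kept in 4 of 12 and lost in the hypocotyl alone and in limma.

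Of the remaining ACO genes, *Solyc02g036350* responded with smaller steps. In the epicotyl at 6 h it was at 27.8, 29.5 and 31.8 CPM in 24FR and 14.2, 11.0 and 11.7 CPM in 24WL, with a log2 difference of 1.27 ± 0.23 (edgeR adjusted p = 3.95e-05) and no overlap. A further 5 comparisons passed the adjusted p at log2 differences from 0.59 in the hypocotyl at 24 h to 0.71 in the epicotyl at 24 h, all higher in 24FR. At 3 h it passed in no organ. The share of all genes that passed the adjusted p alone was not taken. *Solyc02g081190* had its widest difference in the epicotyl at 24 h, with 241, 258 and 309 CPM in 24FR and 170, 168 and 165 CPM in 24WL (log2 difference 0.68, edgeR adjusted p = 0.000209). It also passed at less than 2-fold in the first leaf (0.52) and the hypocotyl (0.42) at 6 h. Its hypocotyl response was higher at 6 h than at 3 h by 0.80 (edgeR adjusted p = 0.029), a call kept in 4 of 12 fits with a library left out and lost in the hypocotyl alone (adjusted p = 0.0686). The levels at 3 h were 120, 145 and 167 CPM in 24FR and 175, 187 and 199 CPM in 24WL. Together, 11 of 108 pairs of gene and contrast of time were called, and 3 of 54 of gene and contrast of organs. Of all genes, 0.298 to 33.7% and 0.16 to 25.4% were called in these contrasts with the filter, and 0.153 to 20% and 0.0945 to 14.7% without. No contrast of time was called for the 9 genes in the cotyledons, where the shares were 1.12, 10.8 and 8.92% with the filter (6 h minus 3 h, 24 h minus 3 h, 24 h minus 6 h) and 0.48, 5.42 and 4.5% without, nor in the first leaf, where they were 0.298, 0.355 and 1.11% with the filter.

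*Solyc12g005940* moved in opposite directions in the stem organs at 24 h. In the hypocotyl it was at 5.41, 5.44 and 5.80 CPM in 24FR, against 2.68, 3.22 and 2.67 CPM in 24WL (log2 difference 0.96 ± 0.23, edgeR adjusted p = 0.00117). In the epicotyl it was at 2.17, 2.15 and 3.00 CPM in 24FR, against 4.01, 3.86 and 5.0 CPM in 24WL, and fell by 0.82 ± 0.23 on the log2 scale (edgeR adjusted p = 0.00278). Neither pair of groups overlapped, and the epicotyl response minus the hypocotyl response was -1.78 ± 0.33 (edgeR adjusted p = 3.87e-05). For this gene and *ACO3* the signs at 24 h were thus opposite, with *ACO3* lower in the hypocotyl and higher in the epicotyl, and *Solyc12g005940* higher in the hypocotyl and lower in the epicotyl. Within the epicotyl, its response at 24 h minus that at 3 h was -1.3 (edgeR adjusted p = 0.00185), and minus that at 6 h it was -0.96 (edgeR adjusted p = 0.0278, with 23% of all genes called). The call against 6 h was kept in 7 of 12 fits with a library left out, with -0.73 (edgeR adjusted p = 0.143) without replicate 2 of 24FR at 6 h, and was lost in limma at a pseudocount of 0.1 (adjusted p = 0.0672).

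*ACO1* and *Solyc07g026650* had no light call. *ACO1* in the hypocotyl at 24 h had 22, 2 and 5 counts in 24FR and 2, 2 and 1 counts in 24WL, a ratio of 6.20 (2.37 to 20.5), and the edgeR adjusted p of 0.0519 became 0.0438 with the replicate number as a block. Replicates with the same number deviated together in that comparison. The hypocotyl at 6 h showed no such excess, with 12, 7 and 10 counts in 24FR and 0, 12 and 33 counts in 24WL. *Solyc07g026650* was at 0 in 54 of 72 libraries and had at most 5 counts in any library of the time course, and its light response could not be read at this depth.

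In white light, *Solyc02g036350* and *ACO1* were the ACO genes with the widest differences between organs. Of 162 pairs of gene and comparison of organs, 68 were called, 13 higher and 55 lower when read as hypocotyl or epicotyl over cotyledons or leaf, leaf over cotyledons and epicotyl over hypocotyl. Between organs 14.1 to 44.7% of all genes were called in the filtered fit and 14.5 to 37.8% without a filter. *Solyc02g036350* followed the order epicotyl, hypocotyl, first leaf and cotyledons from low to high at each time. At 6 h its means were 12.3 ± 1.65, 19.1 ± 5.5, 238 ± 68.5 and 481 ± 64.3 CPM in that order (SD, n = 3), and 17 of its 18 organ comparisons were called. The exception was epicotyl against hypocotyl at 6 h, lower by less than 2-fold (log2 difference -0.64, edgeR adjusted p = 0.0168). The call of first leaf under cotyledons at 6 h lay at the limit of 1. Its log2 difference was -0.997 with DESeq2 size factors and -0.964 with no filter, both under that limit in size. Epicotyl minus hypocotyl at 24 h was -0.88 without replicate 3 of the hypocotyl.

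*ACO1* was highest in the cotyledons. Its level in 24WL there was 11.0 ± 0.358 CPM at 3 h, 29.8 ± 15.3 CPM at 6 h and 16.0 ± 3.21 CPM at 24 h. In the first leaf it was 0.706 ± 0.441, 3.93 ± 1.5 and 1.09 ± 0.225 CPM at the same times, and in the stem organs the means did not exceed 0.449 CPM. Single 24WL libraries held 10.7 to 46.8 CPM in the cotyledons, at most 5.64 CPM in the first leaf and at most 0.937 CPM in the stem organs. In 24WL, *ACO1* thus met the filter through the cotyledons, and its calls against that organ are not independent of the filter. The hypocotyl minus the cotyledons gave -8.05 ± 0.65 on the log2 scale at 24 h (edgeR adjusted p = 2.07e-16), from 2, 2 and 1 counts in the hypocotyl and 277, 213 and 314 counts in the cotyledons. Between the stem organs there was no call at 3 and 24 h, and at 6 h the epicotyl was called lower, with 2, 8 and 3 counts in the epicotyl and 0, 12 and 33 counts in the hypocotyl, which overlap (log2 difference -2.0, edgeR adjusted p = 0.0226). This call was kept in 3 of 6 fits with a library left out and lost in limma and in the fit to the compared groups alone.

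*ACO3* had its highest mean level of the 4 organs in the hypocotyl. In 24WL it was at 12.5 ± 1.76, 5.75 ± 0.952 and 29.3 ± 1.90 CPM there at 3, 6 and 24 h, and in the epicotyl at 5.74 ± 0.845, 3.25 ± 0.544 and 6.14 ± 0.161 CPM. The epicotyl minus the hypocotyl was -2.26 ± 0.22 on the log2 scale at 24 h (edgeR adjusted p = 4.62e-13), and the hypocotyl exceeded the first leaf by 2.40 ± 0.22 (edgeR adjusted p = 3.69e-14). Among the other organs no pair differed by a call except epicotyl over cotyledons at 3 h (log2 difference 1.14, edgeR adjusted p = 5.62e-05). *Solyc02g081190* was highest in the cotyledons, with 702 ± 15.5 CPM at 24 h. The leaf then held 382 ± 18.7 CPM, the epicotyl 168 ± 2.68 CPM and the hypocotyl 120 ± 21.4 CPM. *Solyc12g005940* kept within a narrow range, from 1.01 to 5.27 CPM over the 36 libraries of WT in 24WL, and 3 of its 18 organ comparisons were called.

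**Figure D3:**
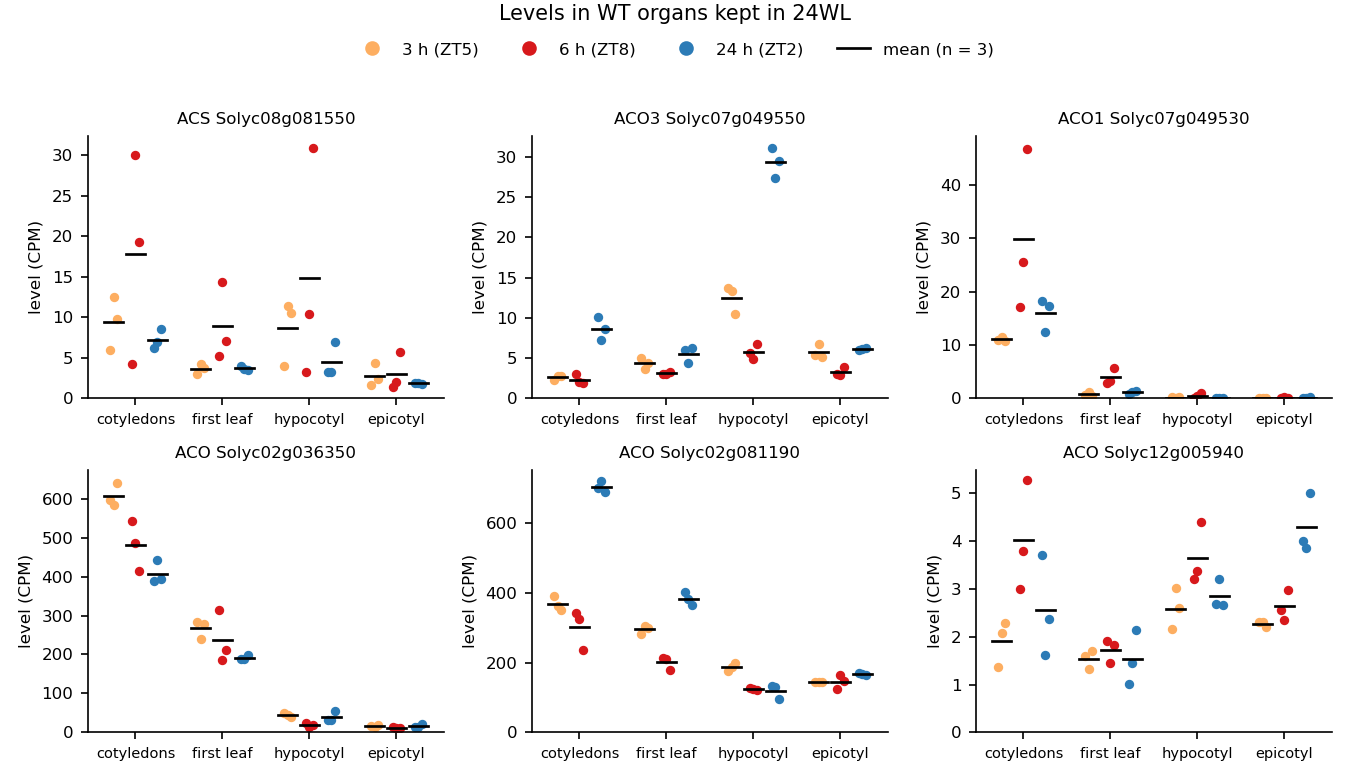
Each panel gives 1 gene in CPM in WT kept in 24WL, with the organs along the axis and the libraries of 3, 6 and 24 h as points. *ACO1* and *Solyc02g036350* are highest in the cotyledons and lowest in the stem organs, whereas *ACO3* is highest in the hypocotyl. Levels are not scaled to gene length and cannot be compared between panels.

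Among the ACS genes, *Solyc08g081550* had the most calls between organs. Its 7 calls were 6 of a lower epicotyl and 1 of a lower first leaf. The first leaf call, against cotyledons at 3 h, was lost with DESeq2 size factors (edgeR adjusted p = 0.0579) and with no filter (0.0645). Without replicate 2 of the cotyledons its edgeR adjusted p was 0.153. Calls of a lower epicotyl against first leaf at 6 h and against hypocotyl at 3 and 6 h were each lost without some single library. The epicotyl level at 6 h was 1.37, 2.03 and 5.74 CPM, against 4.25, 30.0 and 19.2 CPM in the cotyledons, with overlap. That log2 difference was -2.55 (edgeR adjusted p = 9.85e-05). *ACS3* had 4 calls from few counts, of which the epicotyl under the first leaf at 6 h was the clearest, with 0, 7 and 1 counts in the epicotyl and 13, 15 and 12 counts in the leaf (log2 difference -2.95, edgeR adjusted p = 0.00774). The call of epicotyl under hypocotyl at 3 h (edgeR adjusted p = 0.0492) was lost with the replicate number as a block (adjusted p = 0.0534), and these numbers deviated together. *Solyc07g026650* had counts mainly in the hypocotyl, 3, 4 and 0 at 3 h and 2, 5 and 4 at 6 h in 24WL, and none in the first leaf at any time.

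Between hours in white light, 19 of 108 pairs of gene and comparison were called. With 6 h read over 3 h and 24 h, and 3 h over 24 h, 9 were higher and 10 lower. The 24 h samples were taken on the day after those of 3 and 6 h. Comparisons with 24 h therefore hold time of day and a later day of growth together, which cannot be told apart. Of all genes, 2.49 to 20.8% were called between hours in the filtered fit and 2.1 to 16.8% without a filter. *ACO3* was called in 5 of 12, and its hypocotyl level was highest at 24 h, the sample taken 2 h after dawn, and lowest at 6 h, 8 h after dawn (log2 difference of 6 h minus 24 h -2.35 ± 0.22, edgeR adjusted p = 1.27e-13). In the cotyledons the *ACO3* level at 6 h minus that at 24 h was -1.92 ± 0.26 on the log2 scale (edgeR adjusted p = 4.30e-09). *ACO1* went the other way, and was higher at 6 h than at 3 h by 1.44 ± 0.37 in the cotyledons (edgeR adjusted p = 0.000932) and by 2.52 ± 0.51 in the first leaf (edgeR adjusted p = 4.60e-05). *Solyc08g081550* was higher at 6 h than at 24 h in the cotyledons (1.31) and the hypocotyl (1.75), with replicates from 3.26 to 30.9 CPM in the 6 h hypocotyl. Without replicate 3 of the 6 h hypocotyl its difference was 0.62 (edgeR adjusted p = 0.413), and without replicate 2 of the 6 h cotyledons it was 0.72 there (edgeR adjusted p = 0.322). The cotyledon call was kept in 1 of 6 such fits and lost with no filter and in the cotyledons alone, and both calls were lost in limma. The lower level of *ACO3* in 24FR was thus found in the organ and at the hour with its highest white-light level.

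The genotypes were compared at 6 h. The WT libraries are those of the time course, read here with the CPM of the genotype table, and the comparisons of both mutants share them. The comparison asks how far the response of these genes to far-red light depends on *SlPIF8a* and on the 4 PIF genes together. The mutated gene *SlPIF8a* (*Solyc01g090790*) was still transcribed, at 13.3 to 236 CPM over the libraries of *slpifq*, 17.9 to 243 CPM in *slpif8a* and 9.90 to 315 CPM in WT, which does not check a CRISPR mutation. Levels of the other genes mutated in *slpifq* are not given here. In 24FR against 24WL, 6 of 36 pairs of gene and organ were called in *slpif8a*, 1 of 36 in *slpifq* and 6 of 36 in WT, all higher. Of all genes, 0.876 to 2.23% were called over the organs of *slpif8a*, 0.275 to 2.21% in *slpifq* and 1.87 to 4.11% in WT. Without a filter these shares were 0.595 to 1.8%, 0.162 to 1.54% and 1.4 to 3.21%.

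In *slpif8a*, *ACS3* still responded to far-red light. In the cotyledons it was at 3.96, 2.12 and 3.84 CPM in 24FR, from 87, 42 and 98 counts, and at 1, 0 and 1 counts in 24WL. This gave a ratio of summed counts of 119 (32.6 to 990.5), and the edgeR adjusted p was 2.53e-05. In the epicotyl, 133, 24 and 41 counts in 24FR stood against 0, 0 and 2 counts in 24WL, a ratio of 77.1 (21.1 to 641, edgeR adjusted p = 0.000182). The first leaf was called too, with 2.94, 3.44 and 3.42 CPM in 24FR and 0.146, 0.573 and 0.507 CPM in 24WL (log2 difference 3.01 ± 0.78, edgeR adjusted p = 0.0208), but not without replicate 1 of 24WL (2.59, edgeR adjusted p = 0.134). The first leaf call of WT, when fitted with the genotypes, was lost without any single 24WL replicate (edgeR adjusted p = 0.0606 to 0.0846). It was also lost without replicate 2 of 24FR (edgeR adjusted p = 0.0701) and in the likelihood ratio test (adjusted p = 0.056). The hypocotyl of *slpif8a* was not called, at 0.699, 0.296 and 0.864 CPM in 24FR and 0.0576, 0.233 and 0.0845 CPM in 24WL (log2 difference 2.24 ± 0.90, edgeR adjusted p = 0.125). In all 4 organs of *slpif8a* the groups did not overlap.

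In *slpifq*, *ACS3* was called for light in no organ, and the groups overlapped in 3 of 4. The cotyledons had 0, 18 and 0 counts in 24FR and 1, 1 and 0 counts in 24WL. The first leaf did not overlap, with 0.876, 1.86 and 1.25 CPM in 24FR and 0.320, 0.573 and 0.571 CPM in 24WL (log2 difference 1.45 ± 0.80, edgeR adjusted p = 0.502). The hypocotyl had 1, 56 and 9 counts in 24FR and 3, 9 and 8 counts in 24WL, and the epicotyl 2, 16 and 3 counts in 24FR and 0, 5 and 3 counts in 24WL. Replicate 2 of *slpifq* in 24FR was the highest of its group in all 4 organs, and carried most of the counts in 3 of them.

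Set against WT within 24FR, *ACS3* was lower in *slpifq* in the cotyledons, at 0, 1.05 and 0 CPM in *slpifq* and 4.72, 1.38 and 1.23 CPM in WT (log2 difference -2.91 ± 0.83, edgeR adjusted p = 0.0198). In that comparison 2% of all genes were called in the filtered fit and 1.65% without a filter. The call was kept in 3 of 6 fits with a library left out and lost in a fit to the cotyledons alone. The first leaf (-1.31), hypocotyl (-1.45) and epicotyl (-2.27) had the same sign and adjusted p of 0.493, 0.233 and 0.121 in edgeR. The ratio of summed counts in these organs was 0.406 (0.313 to 0.523), 0.390 (0.289 to 0.521) and 0.202 (0.120 to 0.324), intervals that cover counting error only. Against *slpif8a* in 24FR, *slpifq* was lower in the cotyledons (log2 difference -3.34 ± 0.81, edgeR adjusted p = 0.00974) and the epicotyl (-3.24 ± 0.80, edgeR adjusted p = 0.0304), where 0.876% and 0.274% of all genes were called without a filter. These calls were kept in 4 and 3 of 6 fits with a library left out, and the cotyledon call was lost in the fit to the cotyledons alone (adjusted p = 0.101).

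The test of the difference in response itself did not pass for *ACS3*. The *slpifq* response minus the WT response was -2.45 in the epicotyl (95% interval -5.73 to 0.84), -1.62 in the hypocotyl (-4.10 to 0.86), -1.03 in cotyledons (-6.50 to 4.45) and -0.97 in leaves (-3.13 to 1.18). The smallest adjusted p of *ACS3* in the 8 contrasts of genotype and light was 0.894. At the counts of this gene, the interval in each organ holds both 0 and the negative of the WT response.

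**Figure D4:**
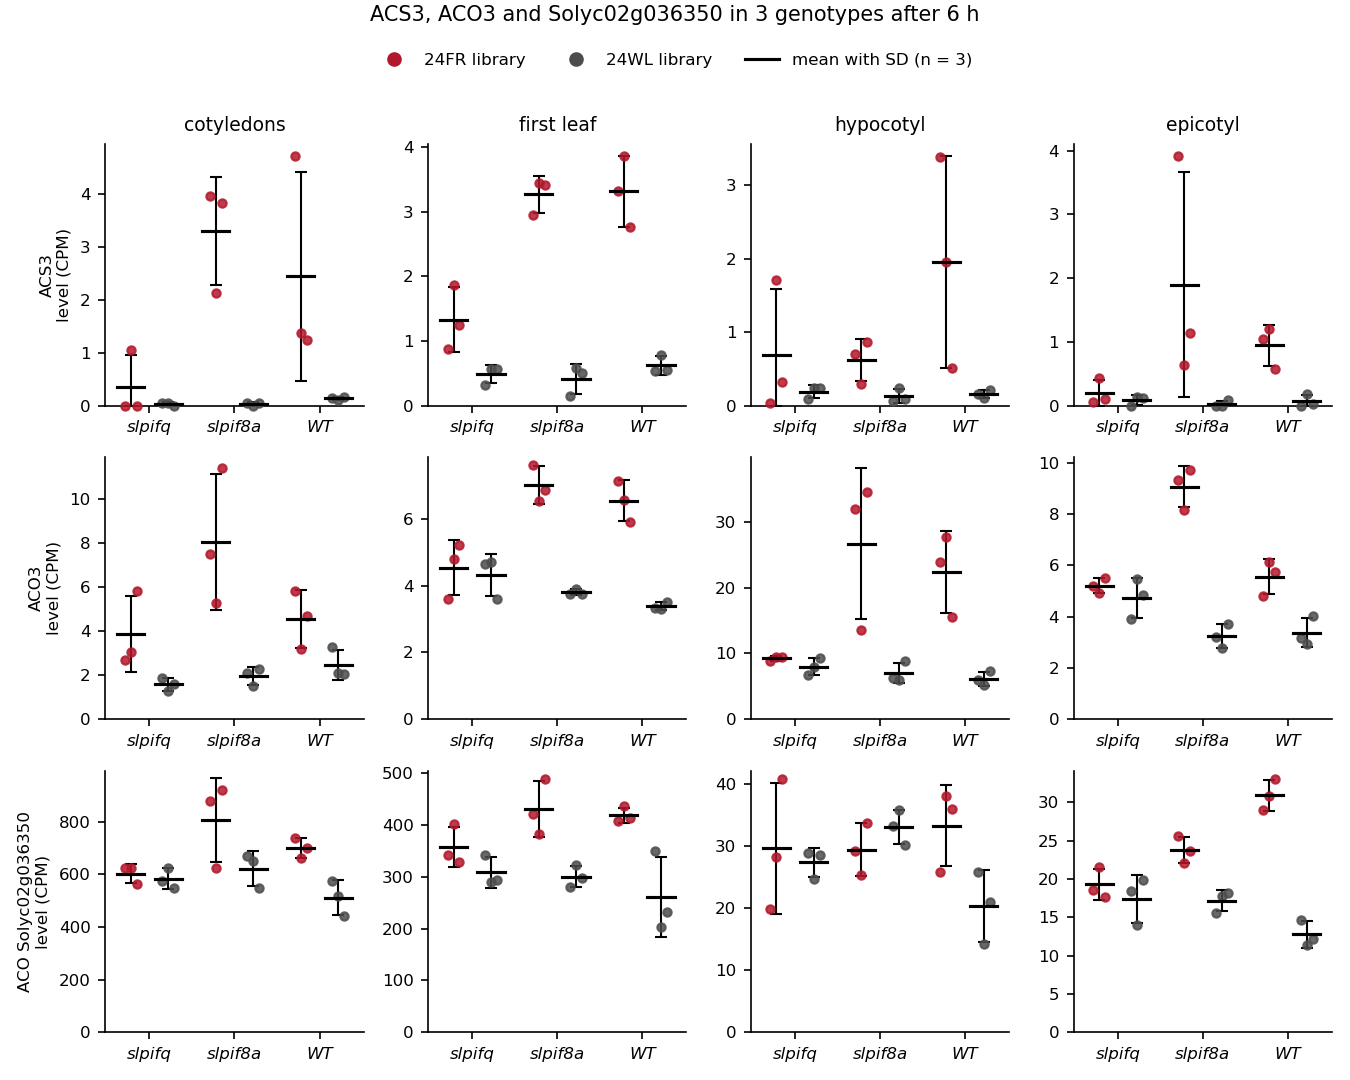
Points are single libraries at 6 h, in CPM, of *slpifq*, *slpif8a* and WT in 24FR (red) and 24WL (grey), with *ACS3*, *ACO3* and *Solyc02g036350* in rows and the organs in columns. Lines are means with the SD of 3 libraries. The *slpifq* libraries of *ACO3* in the hypocotyl lie between 8.80 and 9.51 CPM in 24FR and between 6.70 and 9.24 CPM in 24WL.

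For *ACO3*, a smaller response in the *slpifq* hypocotyl was called by the test of the difference itself. The gene was at 8.80, 9.51 and 9.39 CPM in 24FR and 6.70, 7.99 and 9.24 CPM in 24WL of *slpifq* (log2 difference 0.21 ± 0.24, edgeR adjusted p = 0.686), and these groups overlapped. In *slpif8a* it was at 32.1, 13.6 and 34.6 CPM in 24FR, against 6.19, 6.01 and 8.78 CPM in 24WL (log2 difference 1.93 ± 0.25, edgeR adjusted p = 5.07e-08). The WT difference was 1.86 ± 0.25 (edgeR adjusted p = 5.64e-08), from 24.0, 27.8 and 15.6 CPM in 24FR and 5.96, 5.2 and 7.29 CPM in 24WL. The *slpifq* response minus that of WT was -1.65 ± 0.34 on the log2 scale (edgeR adjusted p = 0.00381), in a contrast with 1.34% of all genes called. Each of the 12 fits with a library left out kept this call, and a fit to the hypocotyl alone did not. The *slpif8a* response differed from that of WT by 0.07 ± 0.34, with a 95% interval of -0.60 to 0.74.

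Within 24FR, the hypocotyl level of *ACO3* in *slpifq* minus that in WT was -1.28 ± 0.24 on the log2 scale (edgeR adjusted p = 0.00017, 2.08% of all genes called), and minus that in *slpif8a* it was -1.53 ± 0.24 (edgeR adjusted p = 6.28e-05, 0.493% called). Both were kept with any library left out. In the cotyledons *ACO3* was called for light in both mutants. It was 7.51, 5.26 and 11.4 CPM in 24FR against 2.07, 1.48 and 2.29 CPM in 24WL of *slpif8a* (log2 difference 2.07 ± 0.28, edgeR adjusted p = 1.20e-07), and 2.7, 3.04 and 5.84 CPM in 24FR against 1.87, 1.25 and 1.60 CPM in 24WL of *slpifq* (1.3 ± 0.3, edgeR adjusted p = 0.00125). Neither pair overlapped, and without replicate 3 of 24FR the *slpifq* difference was 0.88. The WT libraries overlapped, at 5.82, 3.19 and 4.68 CPM in 24FR and 3.25, 2.09 and 2.07 CPM in 24WL, and were not called (0.91 ± 0.29, edgeR adjusted p = 0.029). The response minus that of WT was 1.16 in *slpif8a* (edgeR adjusted p = 0.285) and 0.40 in *slpifq* (edgeR adjusted p = 0.611). The level of *ACO3* in 24FR cotyledons was lower in *slpifq* than in *slpif8a* (log2 difference -1.07, edgeR adjusted p = 0.00792, 1.08% of all genes called), kept in 3 of 6 fits with a library left out.

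In the epicotyl, *ACO3* reached 9.32, 8.17 and 9.72 CPM in *slpif8a* in 24FR, against 3.22, 2.77 and 3.71 CPM in 24WL (log2 difference 1.49 ± 0.26, edgeR adjusted p = 2.83e-05). In *slpifq* the epicotyl groups overlapped, at 5.18, 4.94 and 5.51 CPM in 24FR and 3.90, 5.46 and 4.84 CPM in 24WL (0.14 ± 0.25, edgeR adjusted p = 0.819). The WT difference there was 0.72 ± 0.25 (edgeR adjusted p = 0.039). Neither difference in response passed in the epicotyl, with 0.77 for *slpif8a* (edgeR adjusted p of 1) and -0.58 for *slpifq* (edgeR adjusted p = 0.727). In the first leaf the difference was 0.09 in *slpifq*, 0.88 in *slpif8a* and 0.95 in WT, and the difference in response of *slpifq* did not pass (-0.86, edgeR adjusted p = 0.548).

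*Solyc02g036350* responded less in the epicotyl of *slpifq*. It stood at 18.6, 21.5 and 17.7 CPM in 24FR and 18.4, 13.9 and 19.9 CPM in 24WL of *slpifq*, with overlap. In *slpif8a* it was at 25.6, 22.1 and 23.7 CPM in 24FR and 15.6, 17.8 and 18.1 CPM in 24WL (log2 difference 0.47 ± 0.18, edgeR adjusted p = 0.0603). The WT libraries were at 29.0, 30.7 and 33.0 CPM in 24FR and 14.7, 11.4 and 12.2 CPM in 24WL (1.28 ± 0.18, edgeR adjusted p = 7.06e-07). The *slpifq* response minus that of WT was -1.13 ± 0.26 (edgeR adjusted p = 0.019, 0.51% of all genes called), kept in 5 of 12 fits with a library left out. The difference in response of *slpif8a* was -0.81 ± 0.26 and did not pass (edgeR adjusted p = 0.545).

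In 24WL the mutants did not differ from WT by a call in any of 72 pairs of gene and comparison. An unadjusted edgeR p under 0.05 was found in 10 of them, with no share of all genes taken at that limit. The count of calls was 0 with every other test run. The share of all genes called was 0.0745 to 0.475% with the filter and 0.0757 to 0.429% without. *Solyc08g081550*, *ACO1*, *Solyc12g005940*, *Solyc02g081190*, *Solyc03g043890* and *Solyc07g026650* had no call between genotypes in either light. Of these, *Solyc02g081190* passed the adjusted p at less than 2-fold once for light in *slpifq*, in the cotyledons, with 398, 417 and 581 CPM in 24FR and 316, 305 and 321 CPM in 24WL (0.57, edgeR adjusted p = 0.0154). Between mutant and WT in 24FR it passed at less than 2-fold in 1 of 8 comparisons (edgeR adjusted p = 0.0292). *Solyc02g036350* did so in 1 of 8 too (edgeR adjusted p = 0.0127).

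In *Solyc08g081550*, replicate 1 was the lowest of its group in 23 of the 24 groups of the genotype table, and in 18 of the 24 groups of the time course. A number was lowest in at least 23 of 24 groups for 58 of the tested genes in the genotype table (0.332%). In the time course, a number was lowest in at least 18 of 24 groups for 215 of the tested genes (1.23%). For *Solyc08g081535*, annotated as an ACC synthase too, replicate 1 was lowest in 21 groups of the genotype table and 17 of the time course. At least 21 groups were reached by 326 of the tested genes in the genotype table (1.87%), and no share was taken at 17 groups. In the hypocotyl of *slpifq*, *Solyc08g081550* was at 2.13, 23.7 and 18.2 CPM in 24FR and at 3.87, 3.73 and 6.41 CPM in 24WL. Replicate 1 thus stood apart from the other libraries of that group in 24FR. None of the light or genotype comparisons of this gene was called in the genotype table, and the part of the replicate number in its spread was not tested.

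**Figure D5:**
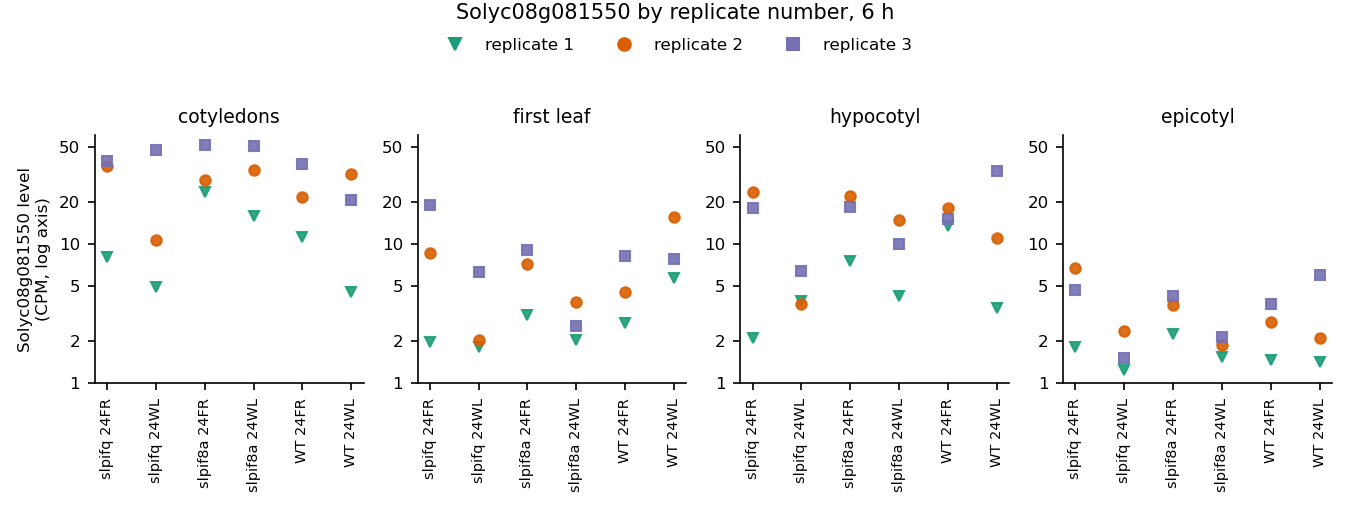
The level of *Solyc08g081550* at 6 h is given in CPM on a log axis for replicates 1, 2 and 3 of each genotype and light, by organ. Replicate 1 lies lowest in 23 of the 24 groups, the exception being *slpifq* in 24WL in the hypocotyl.

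Beyond the genes named by the rule, 25 further genes of the pathway had been listed, among them other ACS genes and S-adenosylmethionine synthetases. The 4 whose identifiers the study annotates were followed. In 24FR against 24WL of WT, 3 of these 4 had a call, all higher, in 3 of 12 comparisons for *ETR4*, 2 for *Solyc08g081535* and 1 for *ETR5*, where 0.704 to 6.94% of all genes were called. *ETR4* (*Solyc06g053710*) and *ETR5* (*Solyc11g006180*) encode ethylene receptors, and *Solyc01g009170* encodes an EIN3-like factor (*EIL*). *ETR4* was higher in 24FR in 10 of 12 WT comparisons at an adjusted p under 0.05, with no share of all genes taken at that limit. It was called in 3, the cotyledons at 6 h (1.15) and the epicotyl at 6 h (1.13) and 24 h (1.04). In the epicotyl at 6 h it was at 21.8, 25.5 and 23.6 CPM in 24FR and 9.33, 12.4 and 10.7 CPM in 24WL (edgeR adjusted p = 7.71e-07). In 24FR the level of *ETR4* in *slpifq* minus that in WT was called in the hypocotyl (-1.08, edgeR adjusted p = 0.00024) and the epicotyl (-1.03, edgeR adjusted p = 0.000951), where 2.08% and 1.03% of all genes were called. No *ETR4* contrast of genotype and light passed (0 of 8, smallest edgeR adjusted p 0.0898).

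*ETR5* was called in 1 of 12 WT comparisons, the epicotyl at 6 h, with 21.6, 22.4 and 25.7 CPM in 24FR and 12.3, 12.2 and 9.37 CPM in 24WL (1.04 ± 0.14, edgeR adjusted p = 1.54e-07). In the *slpifq* epicotyl it was at 11.8, 13.5 and 11.2 CPM in 24FR and 15.5, 13.0 and 13.0 CPM in 24WL, and its response minus that of WT was -1.23 ± 0.26 on the log2 scale (edgeR adjusted p = 0.00577). *Solyc02g036350* and *ETR5* are thus genes of the pathway whose epicotyl response differed between *slpifq* and WT by this test. *EIL* passed the adjusted p in 5 WT comparisons, in cotyledons and first leaf, with log2 differences of at most 0.46. The share of all genes at that limit was not taken. *Solyc08g081535*, annotated as an ACC synthase, stands next to *Solyc08g081550* in the tables, and reads that match both genes equally cannot be assigned to either. It was called higher in 24FR in the hypocotyl at 6 h (1.27, edgeR adjusted p = 0.0465) and 24 h (1.34, edgeR adjusted p = 0.0362). The same 6 h libraries read in the genotype table gave 1.27 and no call (edgeR adjusted p = 0.0782).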

How the data were processed

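RNA-seq libraries of tomato seedling organs were sequenced in 3 biological replicates per group. The authors aligned single-end reads to SL4.0 with STAR 2.7.9a and deposited counts per gene from HTSeq 0.13.5. They also deposited tables of normalized signal, CPM over effective library sizes from edgeR 3.40.2. Library totals were 15905765 to 33913236 counts, where 3 counts equal 0.0710 to 0.222 CPM. Entries that name no gene (8.54 to 17.0% of a library) were left out.

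Counts were tested with edgeR 4.0.16 (quasi-likelihood, TMM, R 4.3.3), with a mean for each group and the 72 libraries of each table together, over genes above 5 CPM in at least 3 libraries. Values were adjusted by Benjamini-Hochberg and called at adjusted p below 0.05 and a log2 difference beyond 1, interactions by adjusted p only. For members that did not pass, values come from all genes with a count, unfiltered. Every member was named. The members and lists were chosen with earlier results of these data known. On simulated data, recovery meant an edgeR adjusted p below 0.05 with the right sign, without the limit on the log2 difference. By that measure, 96 of 100 genes changed by log2 1 were recovered for light in the epicotyl (17469 genes). For its interaction with genotype, 72 of 100 were (17460 genes). Only genes that passed the filter were simulated, with a spread from the trend over genes, so members under the filter are not covered. Alternatives were DESeq2 1.42.0 (test and size factors), limma 3.58.1 on the deposited CPM, a likelihood ratio test, other filters, a replicate block, fits to single organs and leaving out each library. Adding the members under the filter to the tested genes was chosen after seeing the data. Same-numbered replicates paired in 22 of 78 comparisons, with all 3 correlations over 0.1.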

Additional observations from a re-analysis of the deposited data

Results flagged for a closer look

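The effect of 24FR against 24WL differed between times, organs or genotypes in 16 contrasts of these genes, by the edgeR test of the difference itself. They are 11 of 108 pairs of gene and contrast for time, 3 of 54 for organ and 2 of 72 for genotype, where 0.298 to 33.7%, 0.16 to 25.4% and 0.0687 to 5.04% of all genes were called. The highest shares were in contrasts of the epicotyl at 24 h (33.7%, 25.4% and 23%), which hold 6 of the 16. The values below are differences of log2 differences.

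*ACO3* had 7 of the 16. In the hypocotyl its response differed by 1.02 at 6 h minus 3 h, by -1.50 at 24 h minus 3 h and by -2.52 at 24 h minus 6 h, and in the epicotyl by 0.79 at 24 h minus 3 h. Epicotyl minus hypocotyl gave -1.14 at 6 h and 1.79 at 24 h. The *slpifq* response minus that of WT in the hypocotyl was -1.65.

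For *Solyc12g005940*, the epicotyl response was -1.30 at 24 h minus 3 h and -0.96 at 24 h minus 6 h, and epicotyl minus hypocotyl at 24 h was -1.78. For *Solyc02g081190*, the hypocotyl response was 0.80 at 6 h minus 3 h and 0.67 at 24 h minus 3 h. The call of 0.67 was lost with no filter (edgeR adjusted p = 0.0546) and in the hypocotyl alone (0.0597). Its epicotyl response was 0.65 at 24 h minus 6 h, a call lost without replicate 2 of 24FR at 6 h (edgeR adjusted p = 0.122).

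*ACS3*, at few counts, had 4.10 at 6 h minus 3 h and 4.39 at 24 h minus 3 h in the hypocotyl. *Solyc02g036350* had -1.13 for *slpifq* minus WT in the epicotyl.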

How the results depend on the processing

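Of 133 calls over 936 pairs of member and comparison, none changed sign under an alternative or with a library left out. The members called for light in the WT time course numbered 11, against 3 and 4 with limma on log2 of the deposited CPM at pseudocounts of 1 and 0.1. For time and light they numbered 11, against 7 and 6, and for time of day 19, against 10 at a pseudocount of 1. That alternative gave no value for *ACS3* in the time course, nor for *Solyc03g043890* and *Solyc07g026650*. Of the main calls, 4 of the 11 for light were of genes with a limma value. For time and light these were 9 of the 11, and for time of day 15 of the 19. For light in *slpifq* the count was 1, against 2 with the likelihood ratio test, 2 with the replicate block and 0 with limma at a pseudocount of 1. Fits to single organs gave 2 in place of 4 for *slpifq* against *slpif8a* and 1 in place of 2 for genotype and light.

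With a library left out, counts ranged from 9 to 12 for light in the WT time course, 6 to 12 for time and light, 2 to 3 for organ and light, 65 to 70 for organ, 16 to 21 for time of day, 5 to 7 for light in WT and 5 to 6 in *slpif8a* of the genotype table, 0 to 2 in *slpifq*, 1 to 3 for mutants against WT in 24FR, 2 to 4 for *slpifq* against *slpif8a* and 1 to 3 for genotype and light. The time and light count was 6 without replicate 2 of 24WL and 7 without replicate 1 or 2 of 24FR, all in the WT hypocotyl at 3 h. In the *slpifq* cotyledons, the light count was 2 without replicate 3 of 24WL and 0 without replicate 3 of 24FR. The mutant against WT count was 1 without replicate 1 of WT, or 1 or 3 of *slpifq*, in 24FR cotyledons, and *slpifq* against *slpif8a* was 2 without that replicate 1 of *slpifq*. The genotype and light count was 1 without any of 7 epicotyl libraries, replicates 2 and 3 of WT in 24WL, replicate 3 of WT in 24FR, and replicates 1 and 3 of *slpifq* in either light.

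Differences not called from all libraries changed sign, still uncalled, in 142 values under the alternatives and 494 with a library left out. Those that another setting did call were *ACS3* for light in *slpifq* cotyledons (-3.06 without replicate 2 of 24FR, up to 3.77 without another, with 3.11 from all libraries), and *Solyc08g081550* at 6 h in 24WL, where hypocotyl minus cotyledons was 0.31 without replicate 2 of the cotyledons and 0.20 without replicate 1 of the hypocotyl (-1.40 to 0.31 over the libraries, -0.27 from all), and hypocotyl minus first leaf was -0.37 without replicate 3 of the hypocotyl (-0.37 to 1.28, 0.76 from all). The cause was not tested.

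Where the numbers paired, the replicate block gained *ACO1* for light in the WT hypocotyl at 24 h (edgeR adjusted p = 0.0438) and *Solyc08g081550* for hypocotyl minus first leaf at 3 h (0.017), and lost *Solyc07g026650* for hypocotyl minus first leaf (0.0807) and *ACS3* for epicotyl minus hypocotyl (0.0534), both at 3 h. It changed no other member call in the paired comparisons. Depth limits *ACS3*, *Solyc03g043890* and *Solyc07g026650*, which had few counts in most groups.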

Other observations

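The genes whose level followed *ACS3* most closely over the 24 group means of the time course were *Solyc01g094940* (Pearson r = 0.834), *Solyc12g008600* (0.808) and *Solyc09g092520* (0.803). For *ACO3* they were *Solyc03g121620* (0.883), *Solyc02g093360* (0.882) and *Solyc11g067080* (0.880). These are descriptions over groups that share organs and hours.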
